A study of Homo sapiens with 18 samples.

Results

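Neutrophil-attracting chemokine mRNA was followed through a scratch-wound experiment on 2 human keratinocyte lines, together with CCL20. The genes were taken by name from the deposited count table: CXCL8, CXCL1, CXCL2, CXCL3, CXCL5, CXCL6 and CCL20, that is 7 of the 58735 genes listed. HaCaT is an immortal keratinocyte line that arose spontaneously from skin, and TIGK is a gingival (gum) keratinocyte line made immortal with telomerase. The 6 groups were HaCaT unscratched (0 h), HaCaT 6 h after the scratch, HaCaT 24 h after the scratch, and TIGK unscratched, TIGK at 6 h and TIGK at 24 h, with 3 libraries in each and no other treatment. The study asked which transcripts differ between oral and skin keratinocytes before and during closure of the wound. Each tissue is represented by 1 line, so line and tissue of origin cannot be told apart. There was no unscratched culture at 24 h, so time after the scratch and time in culture cannot be told apart either.

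The CXC chemokines of this set are small secreted proteins with a glutamate-leucine-arginine motif before their paired cysteines, and they draw neutrophils out of the blood toward a wound or an infection. CXCL1, CXCL2, CXCL3 and CXCL5 act on the receptor CXCR2, while CXCL8 (interleukin-8) and CXCL6 act on both CXCR1 and CXCR2. CCL20 belongs to another chemokine family and draws CCR6-bearing cells, such as Th17 lymphocytes and immature dendritic cells. In keratinocytes, interleukin-1, tumour necrosis factor and interleukin-17 are known inducers of these genes, acting largely through NF-kB, and the mRNAs are short-lived.

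The 6 CXC genes lie together on chromosome 4 (hg38, per the deposited annotation), within 359 kb from the start of CXCL8 at 73740506 to the end of CXCL2 at 74099293. CXCL8, CXCL6 and CXCL1 are on the plus strand, and CXCL5, CXCL3 and CXCL2 are on the minus strand. The stretch holds 9 protein-coding genes in GENCODE 29, and the remaining 3 are PF4V1, PF4 and PPBP, which encode platelet chemokines. CCL20 is on chromosome 2, from 227805739 to 227817564 on the plus strand. The 150 bases before the RefSeq start of each gene (GRCh38.p14) are shown for 5 of the genes because the results below set CXCL6 apart from its neighbours while all CXC genes of the set share a kB-type sequence there. RefSeq starts can differ from those of the deposited annotation. The windows of CCL20 and CXCL6 lie inside the deposited spans of these genes, and those of CXCL8 and CXCL2 lie partly inside. Capitals mark GGAATTTCC in the CXC genes, and in CCL20 the matches to the looser kB frame, GGG followed by 5 bases of any kind and CC.
CXCL8, chr4:73740419-73740568, plus strand: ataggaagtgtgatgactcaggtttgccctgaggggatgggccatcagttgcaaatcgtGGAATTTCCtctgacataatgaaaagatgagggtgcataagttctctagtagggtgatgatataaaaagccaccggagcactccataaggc
CXCL1, chr4:73869243-73869392, plus strand: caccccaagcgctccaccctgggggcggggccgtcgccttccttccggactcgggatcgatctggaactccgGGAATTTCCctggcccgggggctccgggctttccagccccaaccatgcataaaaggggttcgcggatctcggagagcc
CXCL2, chr4:74099196-74099345, minus strand: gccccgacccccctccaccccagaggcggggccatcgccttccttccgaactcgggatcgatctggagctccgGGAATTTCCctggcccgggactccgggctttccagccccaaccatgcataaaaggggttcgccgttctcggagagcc
CXCL6, chr4:73836528-73836677, plus strand: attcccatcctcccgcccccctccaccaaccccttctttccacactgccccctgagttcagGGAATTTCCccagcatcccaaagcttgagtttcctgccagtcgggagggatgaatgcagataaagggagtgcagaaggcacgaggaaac
CCL20, chr2:227813692-227813841, plus strand: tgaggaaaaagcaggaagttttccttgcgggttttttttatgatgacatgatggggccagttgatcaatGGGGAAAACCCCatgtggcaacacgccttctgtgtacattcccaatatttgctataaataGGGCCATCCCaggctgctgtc
GGAATTTCC, searched on both strands, was found in the windows of 6 of the 7 genes, every CXC gene, always in the direction of transcription. Its first base lay 78 bases before the start in CXCL1 and in CXCL3, 77 in CXCL2, 90 in CXCL5, 89 in CXCL6 and 91 in CXCL8. Of 35116 RefSeq promoter windows of this length, 89 held it (0.253%). The looser frame, also searched on both strands, was present in all 7 windows and in 43.1% of all windows. It overlaps GGAATTTCC in CXCL1, CXCL2, CXCL3, CXCL5 and CXCL6 but not in CXCL8. An AP-1 sequence, TGANTCA, was present in CXCL8 alone and in 4.17% of all windows, and TATAAA was present in CXCL8 and CCL20 and in 6.71% of all windows. The windows of CXCL1, CXCL2 and CXCL3 were 86.1% to 88.7% identical to each other, those of CXCL5 and CXCL6 were 89.4% identical, and all other pairs were 39.8% to 51.5% identical. A sequence match is a description of these letters and no evidence that a factor was bound.

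Libraries held 14238090 to 25011331 counted reads. In TIGK, the libraries lettered C stood apart at 0 h and 6 h, with 26246 and 25161 genes holding a count, where the other 16 libraries had 21164 to 22799. Results that involve them are also given without them where that changed a call. All 8 keratinocyte markers examined (KRT5, KRT14, TP63, KRT6A, KRT17, CDH1, EPCAM and SFN) were present in every group. Neutrophil markers summed to between 0 and 1.27 CPM (a read count scaled to the library's size with edgeR) in every library, and FCGR3B had no count in any. Markers of other leukocytes summed to 0.487 to 1.49 CPM in HaCaT and 13.3 to 22.6 CPM in TIGK, with LYZ at 0 throughout, and fibroblast markers summed to 21.0 to 40.6 CPM in HaCaT and 236 to 434 CPM in TIGK. In HaCaT at 24 h, where most chemokine genes were highest, neutrophil markers summed to 0.391 to 1.27 CPM (0 to 0.187 CPM at 0 h). Fibroblast markers summed to 37.6 to 40.6 CPM (24.9 to 29.02 CPM at 0 h) and endothelial markers to 6.80 to 8.15 CPM (2.72 to 3.27 CPM at 0 h). MPO, FCGR3B, PECAM1 and CDH5 were at 0 there, whereas CSF3R, S100A12, CXCR2, VWF and TEK had counts. Against 0 h, the 1 endothelial marker that could be tested was called up (log2 1.34), as was 1 of 4 fibroblast markers tested. In that comparison 31.4% of all genes were called. No neutrophil marker passed the filter on low counts. Melanocyte markers summed to 1.84 to 4.70 CPM over all libraries, with TYR at 0. The part of these cells in the results was not tested. In bulk RNA, fewer cells with a transcript and less of it per cell cannot be told apart. The labels do not say that the 3 libraries of a group came from separate cultures, so the spread that p-values rest on may be technical.

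By 24 h after the scratch, HaCaT had raised 5 of the 6 chemokine genes that could be tested, and CXCL8 and CXCL1 made up most of the increase. CXCL5 had too few reads to pass the filter on low counts, and CXCL6, which was expressed in HaCaT at every time, was not called. Across all 17409 genes tested, 31.4% were called in this comparison (edgeR quasi-likelihood test, false discovery rate under 0.05), so calls were common in general. The median log2 fold change of the 6 tested genes was 4.87, against 0.0036 over all genes tested, and 4.79 with CXCL3 set at its lower bound. The set was chosen with earlier results of these data known, so these values are description only.

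CXCL8 is a potent neutrophil attractant that mice lack. It measured 1.67, 1.42 and 3.18 CPM in HaCaT libraries A, B and C at 0 h, 6.80, 3.91 and 4.75 CPM at 6 h, and 61.1, 54.7 and 69.9 CPM at 24 h. Every 6 h library lay above every 0 h library and every 24 h library far above both. The 24 h level was 29.5-fold that at 0 h (log2 4.88 ± 0.24 SE, adjusted p = 1.75e-13). CXCL1, first known as a melanoma growth factor and a CXCR2 ligand, measured 1.15, 1.36 and 1.43 CPM at 0 h, 1.21, 1.53 and 0.913 CPM at 6 h, and 37.7, 34.0 and 33.6 CPM at 24 h. The 0 h and 6 h libraries overlapped, and the 24 h libraries were separate and close together. The rise over 0 h was 26.5-fold (log2 4.73 ± 0.32, adjusted p = 4.23e-11).

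CXCL2 and CXCL3, the closest relatives of CXCL1, began from almost no reads. CXCL2 was at 0, 0.124 and 0.125 CPM at 0 h, 0.445, 0.367 and 0.365 CPM at 6 h, and 2.54, 3.14 and 2.22 CPM at 24 h. The 3 times did not overlap, and the 24 h level was 28.9-fold that at 0 h (log2 4.85 ± 0.64, adjusted p = 1.82e-06), from 4 reads in all at 0 h. CXCL3 had no read in any 0 h library, 0.0635, 0 and 0.426 CPM at 6 h, and 3.11, 1.77 and 2.81 CPM at 24 h. Set against 3 counts in each 0 h library, its 24 h level was at least 13.6-fold higher (adjusted p = 8.38e-06).

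CCL20, the CCR6 ligand, followed the same course. It was at 0.128, 0 and 0 CPM at 0 h, 0.445, 0.306 and 0.304 CPM at 6 h, and 3.81, 3.14 and 6.33 CPM at 24 h. Each later time lay above the one before it in every library, with library C the highest at 24 h. With 2 reads in all at 0 h, the ratio of 24 h to 0 h was 106, with a 95% counting interval of 28.99 to 882 (adjusted p = 3.17e-07). Those 2 reads came from library A, and without that library the fitted log2 change was 9.19 in place of 6.49.

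CXCL6 (granulocyte chemotactic protein) did not take part at a level the test could detect. It measured 1.60, 0.929 and 0.561 CPM at 0 h, 1.14, 0.794 and 1.40 CPM at 6 h, and 1.53, 1.91 and 1.11 CPM at 24 h. The 3 times overlapped, and the 24 h change was 0.55 ± 0.55 on the log2 scale (adjusted p = 0.494). CXCL5, an epithelial neutrophil attractant, had 1 read over the 3 libraries at 0 h, 1 at 6 h and 15 at 24 h. Its 24 h to 0 h count ratio was 15.7, with a counting interval of 2.41 to 660. Without the filter on low counts it was tested and not called (adjusted p = 0.324).

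**Figure D1:**
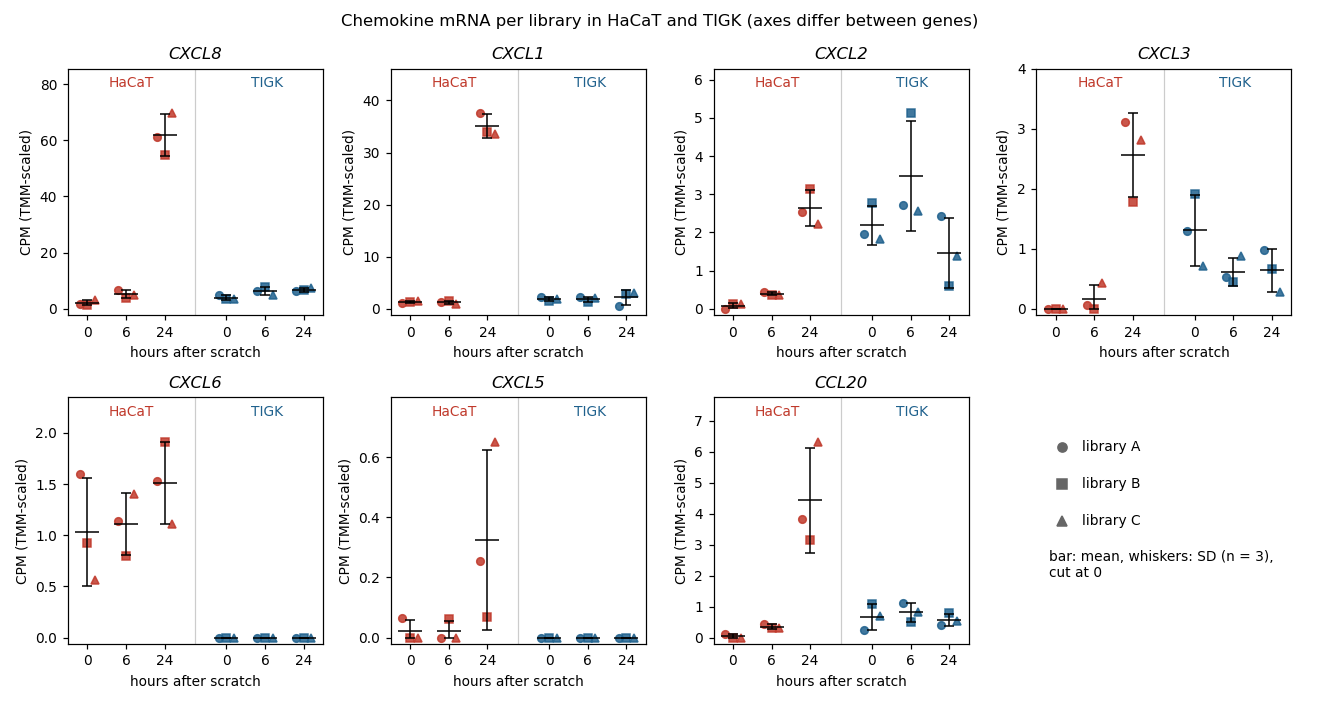
CPM of each chemokine gene in every library, HaCaT in red and TIGK in blue, at 0, 6 and 24 h, with the group mean and SD (n = 3). The 24 h HaCaT libraries stand above all others for CXCL8, CXCL1 and CCL20, whereas CXCL6 is near its 0 h level in HaCaT and at 0 in TIGK. Axes differ between genes.

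At 6 h, HaCaT had changed little. CXCL8 alone was called of the 6 tested, where 0.201% of all genes (35) were called, and it was 2.45-fold its 0 h level (log2 1.29 ± 0.26, adjusted p = 0.0343). This call was lost without library A or B at 0 h (adjusted p = 0.242 and 0.224), without library A or C at 6 h (0.245 and 0.093), and on the authors' FPKM with limma. CXCL2 and CCL20 had all 6 h libraries above all 0 h libraries but few reads, with a log2 change of 2.13 ± 0.80 for CXCL2 (adjusted p = 0.488) and a count ratio of 8.37 (counting interval 1.99 to 74.7) for CCL20 (adjusted p = 0.36). CXCL1 differed by -0.12 ± 0.40 on the log2 scale (adjusted p = 0.99). From 6 h to 24 h, 5 of 6 genes were called up, where 35.7% of all genes were called. The 24 h levels were 28.7-fold those at 6 h for CXCL1, 14.97-fold for CXCL3, 12.4-fold for CCL20, 12.03-fold for CXCL8 and 6.61-fold for CXCL2, with adjusted p from 2.30e-11 for CXCL1 and 3.69e-12 for CXCL8 to 0.000191 for CXCL3. The CXCL3 value rests on library C at 6 h, without which the log2 change was 6.05 in place of 3.90.

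TIGK expressed CXCL8, CXCL1, CXCL2, CXCL3 and CCL20 at every time, and only CXCL8 was called in its response to the scratch against 0 h. CXCL8 measured 4.98, 3.40 and 3.48 CPM in TIGK libraries A, B and C at 0 h, 6.32, 7.71 and 4.86 CPM at 6 h, and 6.16, 6.60 and 7.25 CPM at 24 h. The 6 h libraries overlapped those of 0 h at their lower end, and the 24 h libraries lay above all 0 h libraries. At 24 h CXCL8 was 1.70-fold its 0 h level (log2 0.77 ± 0.23, adjusted p = 0.0129), as 1 of the 6 genes tested, where 32.3% of all genes were called. CXCL6 is counted among the 6, but it had no read in TIGK and could not be called between TIGK times. The CXCL8 call at 24 h was lost without library B or C at 0 h (adjusted p = 0.056 and 0.0563). At 6 h none of the 6 was called by edgeR, where 3.62% of all genes were called, and CXCL8 was the 1 gene of the 6 under an unadjusted p of 0.05 (log2 0.68 ± 0.23, adjusted p = 0.125). CXCL8 was called there with DESeq2 (adjusted p = 0.0374), without the filter on low counts (0.0233) and without library C at 6 h (0.0402), and by limma no gene of the set was.

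CXCL1 in TIGK measured 2.15, 1.38 and 1.89 CPM at 0 h, 2.20, 1.19 and 1.97 CPM at 6 h, and 0.589, 2.87 and 3.08 CPM at 24 h. CXCL2 measured 1.97, 2.77 and 1.82 CPM at 0 h, 2.73, 5.14 and 2.57 CPM at 6 h, and 2.42, 0.588 and 1.37 CPM at 24 h. Library A at 24 h was the lowest of its group in CXCL1 and the highest in CXCL2. Without it, CXCL1 was called higher at 24 h than at 0 h (log2 0.71, adjusted p = 0.0407) and than at 6 h (log2 0.73, adjusted p = 0.0346), whereas with it neither was. CXCL2 was lower at 24 h than at 6 h, at 0.422 of the 6 h level (log2 -1.25 ± 0.42, adjusted p = 0.0216), the 1 call of 6 in that comparison, where 36.7% of all genes were called. That call was lost without library B at 6 h, B at 24 h or C at 24 h (adjusted p = 0.174, 0.119 and 0.060). CXCL3 measured 1.29, 1.90 and 0.719 CPM at 0 h, 0.532, 0.439 and 0.874 CPM at 6 h, and 0.982, 0.653 and 0.274 CPM at 24 h, and the times overlapped (24 h against 0 h, log2 -1.002 ± 0.628, adjusted p = 0.244). CCL20 stood between 0.246 and 1.13 CPM in all 9 TIGK libraries with no call between times. CXCL5 and CXCL6 had no read in any TIGK library, where 3 counts would correspond to 0.157 to 0.199 CPM as a group mean. CXCL6 is counted among the 6 above but could therefore not be called between TIGK times.

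The transcripts of CXCL1, CXCL2 and CXCL3 are alike enough for reads to be shared. Of the 1048 windows of 50 bases in the longest CXCL1 transcript (GENCODE 29), 60 also occur in CXCL2 and 6 in CXCL3. Of the 1169 of CXCL2, 54 occur in CXCL3. The handling of such reads is not given in the sources used here, so their split between the 3 genes is uncertain. Their summed reads were steadier than the single genes in TIGK at 24 h, at 3.99, 4.11 and 4.72 CPM. The coefficient of variation of the sum was 9.07% there, against 63.4% for CXCL1, 63.1% for CXCL2 and 55.7% for CXCL3. That group had the widest gap for CXCL1. In HaCaT the sum varied more than CXCL1 at 0 h (15.5% against 11.1%) and at 24 h (6.58% against 6.44%). It varied less than each single gene in TIGK at 0 h (15.5%) and 6 h (13.1%) and in HaCaT at 6 h (6.02%). Whether reads were shared between the genes was not tested. The summed reads rose 28.6-fold over 0 h in HaCaT at 24 h (log2 4.84 ± 0.18, adjusted p = 1.87e-15). CXCL1 held most of these HaCaT reads, with 63 at 0 h and 1606 at 24 h. CXCL2 held 4 and 120 and CXCL3 held 0 and 118, so the sum mostly repeats the CXCL1 rise. In TIGK at 24 h the summed reads stood at a log2 value of -0.30 ± 0.17 against 0 h (adjusted p = 0.19) and of -0.46 ± 0.17 against 6 h (adjusted p = 0.0364).

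**Figure D2:**
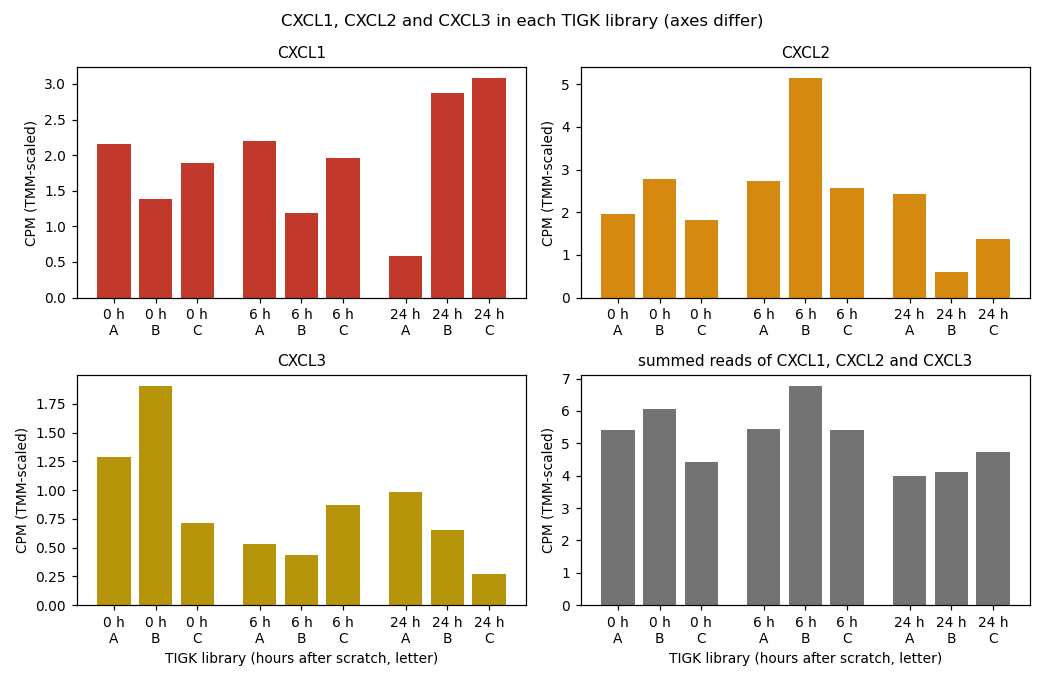
CPM of CXCL1, CXCL2, CXCL3 and of their summed reads in each of the 9 TIGK libraries (bars, 1 per library, axes from 0). At 24 h, library A is lowest in CXCL1 and highest in CXCL2, while the sums lie between 3.99 and 4.72 CPM.

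The 24 h responses of the lines were compared directly with an interaction term, HaCaT response minus TIGK response, and 5 of the 6 genes were called higher in HaCaT, where 13.5% of all genes were called. For CXCL8 the difference in log2 response was 4.12 ± 0.34 (adjusted p = 6.75e-09), from 4.88 in HaCaT and 0.77 in TIGK. For CXCL1 it was 4.46 ± 0.47 (adjusted p = 3.39e-07), from 4.73 in HaCaT and 0.26 in TIGK. For CXCL2 it was 5.43 ± 0.79 (adjusted p = 3.09e-05), from 4.85 in HaCaT and -0.57 in TIGK. CXCL3 and CCL20 were called as well (adjusted p = 7.03e-05 and 3.61e-05), but their fitted sizes depend on the prior count because HaCaT held 0 and 2 reads at 0 h. CXCL6 gave no value, since TIGK had no read of it. At 6 h none of the 6 was called by edgeR, where 0.752% of all genes were called, and the difference for CXCL8 was 0.62 ± 0.35 (adjusted p = 0.573). At an unadjusted p under 0.05 it gave 2 of the 6, CXCL3 and CCL20, and DESeq2 and limma also called 0. All 5 calls at 24 h were kept when each library was left out in turn and under every other setting that could be fitted. For CCL20 the size was 9.43 without HaCaT library A at 0 h, in place of 6.72.

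**Figure D3:**
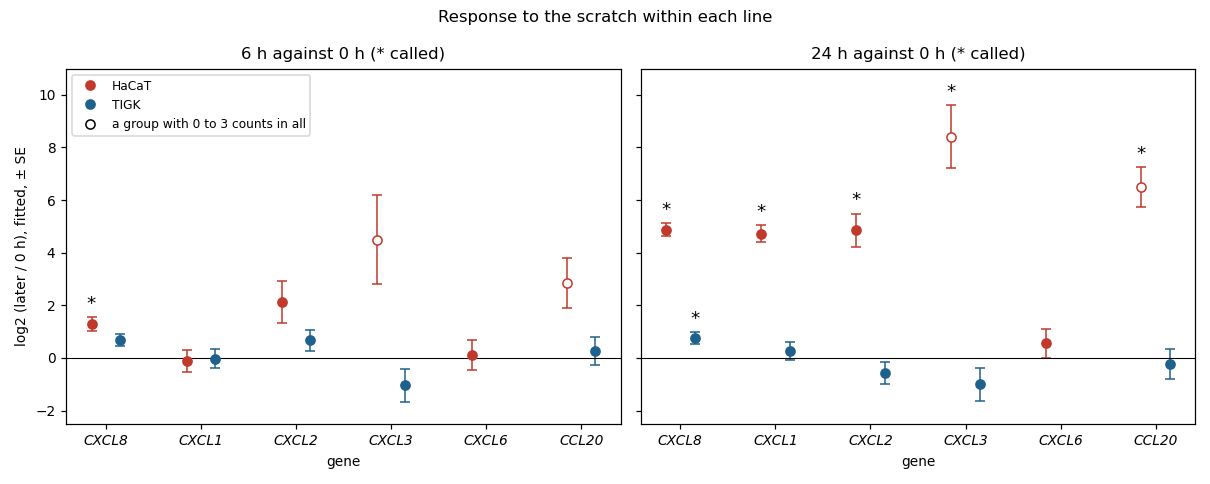
Fitted log2 change at 6 h (left) and 24 h (right) against 0 h, with SE, for HaCaT in red and TIGK in blue; open symbols mark comparisons in which a group held 0 to 3 reads in all, and stars mark calls. At 24 h the HaCaT values of CXCL8, CXCL1 and CXCL2 lie between 4.73 and 4.88, and the TIGK values between -0.57 and 0.77.

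Before the scratch the lines stood the other way round from 24 h for CXCL8, CXCL3 and CCL20. At 0 h, HaCaT was lower than TIGK in 4 of the 6 tested genes and higher in 1, where 62.6% of all genes were called. The gene called higher is CXCL6. With no read in TIGK, it passed the filter through HaCaT alone and could be called in that direction only. CXCL2 averaged 0.0829 ± 0.0718 CPM in HaCaT and 2.18 ± 0.513 CPM in TIGK (SD, n = 3 each), a log2 difference of -4.58 ± 0.64 (adjusted p = 1.04e-06). CXCL3 had no read in HaCaT and averaged 1.304 ± 0.593 CPM in TIGK, at least 6.92-fold lower in HaCaT (adjusted p = 2.39e-05). CCL20 held 2 reads in HaCaT and 41 in TIGK, a ratio of 0.0613 with a counting interval of 0.00718 to 0.236 (adjusted p = 0.000487). Without HaCaT library A, which held both reads, its fitted log2 difference was -6.50 in place of -3.79. CXCL8 averaged 2.09 ± 0.953 CPM in HaCaT and 3.95 ± 0.888 CPM in TIGK, a log2 difference of -0.90 ± 0.27 (adjusted p = 0.00519), and the lines did not overlap. CXCL6 averaged 1.03 ± 0.528 CPM in HaCaT and had no read in TIGK, at least 6.57-fold higher in HaCaT (adjusted p = 1.69e-05). CXCL1 averaged 1.32 ± 0.146 CPM in HaCaT and 1.81 ± 0.390 CPM in TIGK, with overlapping libraries and no call (log2 -0.46 ± 0.37, adjusted p = 0.289), although the summed reads of CXCL1, CXCL2 and CXCL3 were called lower in HaCaT (log2 -1.90 ± 0.20, adjusted p = 6.80e-09). Each of the 5 calls was kept without the TIGK libraries lettered C.

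At 6 h, CXCL2 remained lower in HaCaT, at 0.392 ± 0.0454 CPM against 3.48 ± 1.44 CPM in TIGK (log2 -3.12 ± 0.49, adjusted p = 5.43e-06), and CXCL6 remained higher, at 1.11 ± 0.304 CPM in HaCaT and 0 in TIGK (at least 6.05-fold, adjusted p = 2.30e-05). CXCL3 was called lower in HaCaT (log2 -1.87 ± 0.79, adjusted p = 0.045), which made 3 calls of 6 where 62.6% of all genes were called. Of these, CXCL6 passed the filter through HaCaT alone and could be called higher in HaCaT only. The CXCL3 call was lost without the TIGK libraries lettered C (adjusted p = 0.149), without HaCaT library A or B at 6 h (0.145 and 0.165) and without TIGK library A or C at 6 h (0.0589 and 0.154), and on log2(FPKM + 1) with limma (0.0984). Without HaCaT library C at 6 h its log2 value was -4.02. CXCL8, CXCL1 and CCL20 were not called at 6 h (adjusted p = 0.287, 0.216 and 0.0868).

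At 24 h, HaCaT was higher in 5 of the 6 genes and lower in none, where 61.7% of all genes were called. CXCL6 is among the 5. With no read in TIGK, it passed the filter through HaCaT alone and could be called in that direction only. CXCL1 averaged 35.1 ± 2.26 CPM in HaCaT and 2.18 ± 1.38 CPM in TIGK, 16.1-fold higher (log2 4.01 ± 0.30, adjusted p = 2.82e-11). CXCL8 averaged 61.9 ± 7.65 CPM in HaCaT and 6.67 ± 0.55 CPM in TIGK, 9.28-fold higher (log2 3.21 ± 0.21, adjusted p = 2.14e-12). CCL20 was 7.61-fold higher and CXCL3 was 3.98-fold higher (adjusted p = 3.91e-05 and 0.00776), and CXCL6 was at least 7.60-fold higher. CXCL2 averaged 2.63 ± 0.466 CPM in HaCaT and 1.46 ± 0.921 CPM in TIGK and was not called (log2 0.85 ± 0.42, adjusted p = 0.0877), and its libraries overlapped. Without TIGK library A at 24 h it was called (log2 1.42, adjusted p = 0.0129), and it was also called on the authors' FPKM with limma (adjusted p = 0.0379 and 0.031 with pseudocounts of 0.1 and 1).

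**Figure D4:**
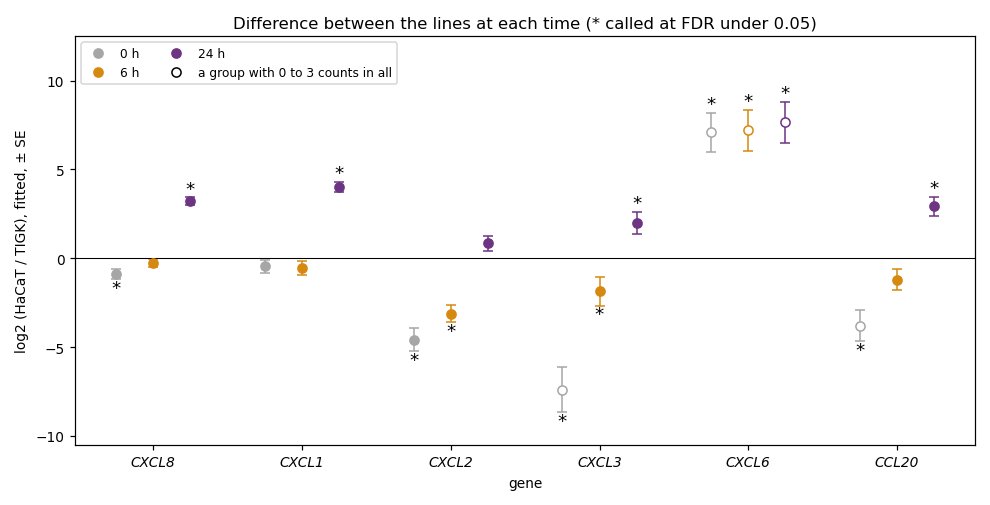
Fitted log2 ratio of HaCaT to TIGK with SE at 0 h (grey), 6 h (orange) and 24 h (purple); open symbols mark comparisons in which a group held 0 to 3 reads in all, and stars mark calls. CXCL8, CXCL1, CXCL2, CXCL3 and CCL20 lie below 0 at 0 h and 6 h and above 0 at 24 h, and CXCL6 lies above 0 at every time.

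Placed in order of mean CPM, CXCL8 ran from HaCaT 24 h (61.9) through TIGK 24 h (6.67), TIGK 6 h (6.30), HaCaT 6 h (5.15) and TIGK 0 h (3.95) to HaCaT 0 h (2.09). The step from HaCaT 24 h to TIGK 24 h and that from TIGK 0 h to HaCaT 0 h were called, and between those steps each group overlapped its neighbours in this order, although TIGK 24 h lay above TIGK 0 h in every library. CXCL1 had HaCaT 24 h at the top and overlapping libraries in neighbouring groups below it, at means of 1.22 to 2.18 CPM. CXCL2 was highest in TIGK 6 h (3.48), followed by HaCaT 24 h (2.63), TIGK 0 h (2.18) and TIGK 24 h (1.46), and the libraries of these neighbours overlapped. HaCaT 6 h (0.392) and HaCaT 0 h (0.0829) stood below them and apart. By mean, CXCL3 and CCL20 were highest in HaCaT 24 h, with all TIGK groups in between and HaCaT 6 h and 0 h lowest. For CXCL3, HaCaT 24 h library B (1.77) lay below TIGK 0 h library B (1.90). Its HaCaT 6 h library C (0.426) lay above TIGK 24 h library C (0.274). For CCL20, the HaCaT 6 h libraries overlapped those of TIGK 0 h and TIGK 24 h. Neighbouring TIGK groups overlapped in both genes.

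Levels of different genes were compared in the authors' FPKM, which are divided by gene length. The deposited gene length is 2219 bases for CXCL3 and 1500 for CXCL2. Their longest protein-coding transcripts in GENCODE 29 have 1075 and 1218 bases, so the shares below depend on the length used. Summed over the 6 CXC genes, FPKM averaged 2.43 ± 0.339, 3.97 ± 0.631 and 57.8 ± 3.41 in HaCaT at 0 h, 6 h and 24 h, and 5.10 ± 0.609, 6.68 ± 1.10 and 5.81 ± 0.663 in TIGK (SD, n = 3). HaCaT at 24 h was therefore at 23.8 times its own 0 h sum and 9.96 times the TIGK sum at 24 h, and HaCaT at 0 h was at 0.477 of the TIGK sum. The make-up differed as well as the amount. At 24 h in HaCaT, CXCL8 (46.8% ± 3.70) and CXCL1 (46.7% ± 3.15) held nearly equal shares, at 27.1 and 27.0 FPKM, and CXCL2, CXCL3, CXCL6 and CXCL5 held 3.05%, 1.97%, 1.21% and 0.215%. At 0 h in HaCaT, CXCL6 held 19.8% ± 10.9 of the sum. In TIGK, CXCL2 held 28.2%, 33.6% and 17.2% at 0 h, 6 h and 24 h, and CXCL8 held 33.5%, 40.8% and 50.1%.

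**Figure D5:**
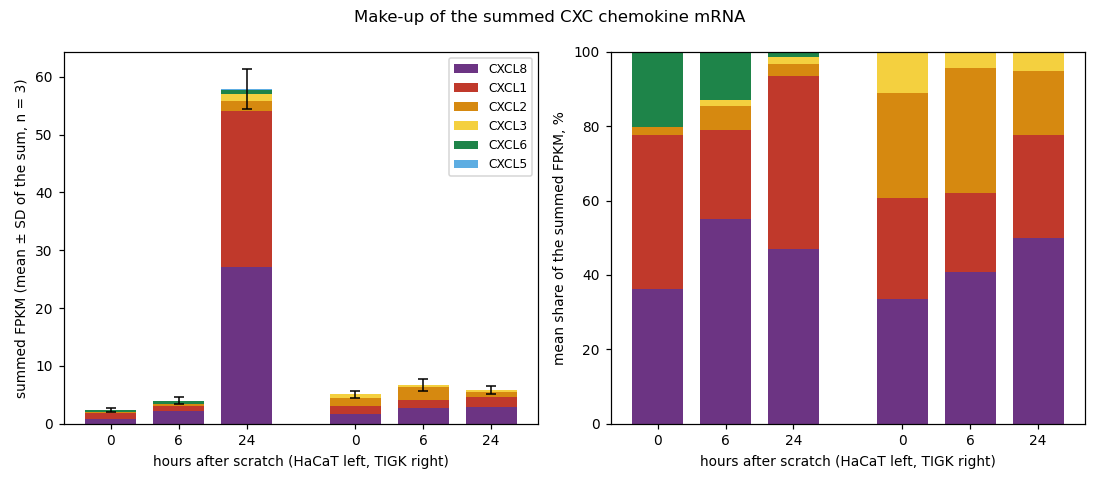
Summed FPKM of the 6 CXC chemokine genes by group (left, mean ± SD of the sum, n = 3) and mean share of each gene in that sum (right), HaCaT on the left and TIGK on the right of each panel. The HaCaT 24 h bar reaches 57.8 FPKM, nearly all CXCL8 and CXCL1, and CXCL6 is present in HaCaT alone.

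The receptors of these ligands were nearly absent. CCR6 and ACKR1, a scavenging receptor, had no read in any library, CXCR1 averaged at most 0.346 CPM and CXCR2 at most 0.563 CPM, and 0 of the 4 passed the filter on low counts. Among 20 other chemokines, 6 could be tested, and in HaCaT at 24 h 4 of them rose against 0 h and none fell, namely CXCL14, CXCL10, CCL2 and CCL28. The median log2 change over the 6 in HaCaT was 1.55, and 1.22 with CXCL10, which had no read in HaCaT at 0 h, at its lower bound; 31.4% of all genes were called in this comparison. In TIGK at 24 h 3 rose and none fell, namely CXCL14, CXCL10 and CCL5, where 32.3% of all genes were called. CXCL14, a chemokine made constitutively by epithelia, averaged 257.9 ± 39.3 CPM in HaCaT at 24 h and 77.5 ± 4.51 CPM at 0 h (3.33-fold, adjusted p = 8.78e-09), and rose 5.62-fold in TIGK (adjusted p = 4.11e-11), a difference in response of -0.76 ± 0.22 (adjusted p = 0.0241). CCL2, a monocyte attractant, averaged 4.23 ± 0.595 CPM in HaCaT at 24 h and 0.167 ± 0.156 CPM at 0 h (24.2-fold, adjusted p = 2.25e-05), and had 1 read in all 9 TIGK libraries together. With at most 0.167 CPM on average in any other group, CCL2 passed the filter through HaCaT at 24 h alone. It could therefore be called up only, and its rise is description. CXCL10, an interferon-induced attractant of T cells, was lower in HaCaT, at 0.284 ± 0.135 CPM in HaCaT and 3.36 ± 0.491 CPM in TIGK at 24 h (log2 -3.53 ± 0.57, adjusted p = 1.29e-05).

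Of 18 genes for inducing cytokines and their receptors, 15 were tested, and in HaCaT at 24 h 4 rose (IL1A, IL1B, TNF and IL17RC) and 3 fell (IL1RL2, IL33 and IL17RA) against 0 h, with a median log2 change of -0.0178, beside 31.4% of all genes called. In TIGK at 24 h 5 rose (IL36RN, IL18, TNFRSF1A, IL17RC and IL17RE) and 4 fell (IL1RAP, IL1RL2, IL33 and IL17RA), beside 32.3% of all genes called. The alarmin IL1A averaged 34.5 ± 1.37 CPM in HaCaT at 24 h and 3.36 ± 0.817 CPM at 0 h (10.3-fold, adjusted p = 2.17e-12). IL1B, another interleukin-1 cytokine, rose 5.61-fold (adjusted p = 1.03e-07), and TNF averaged 3.43 ± 0.966 CPM at 24 h and 0.147 ± 0.157 CPM at 0 h (22.3-fold, adjusted p = 0.00019). With at most 0.159 CPM on average in any other group, TNF passed the filter through HaCaT at 24 h alone. It could therefore be called up only, and its rise is description. In TIGK neither IL1A nor IL1B was called at 24 h (log2 0.32 ± 0.19 for IL1A and -0.19 ± 0.26 for IL1B). The difference in response was called for both (log2 3.04 ± 0.27 and 2.68 ± 0.38, adjusted p = 2.33e-08 and 1.91e-05). IL1RL2, the interleukin-36 receptor, fell in HaCaT to 0.38 of its 0 h level (adjusted p = 1.01e-05).

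Of 18 NF-kB subunits, inhibitors, targets and related regulators, all were tested, and 14 rose and none fell in HaCaT at 24 h, with a median log2 change of 0.71, where 31.4% of all genes were called. This list, like the other lists here, was chosen with earlier results of these data known, so its counts are description only. BIRC3, an NF-kB target that restrains cell death, rose 10.2-fold, TNFAIP3 (A20), a feedback inhibitor, rose 7.26-fold, NFKBIA, the inhibitor IkB-alpha, rose 3.35-fold, and NFKBIZ, a co-activator of CXC chemokine genes in mice, rose 3.30-fold, with adjusted p from 1.15e-15 for BIRC3 to 8.42e-12 for NFKBIZ. In TIGK at 24 h, 8 of the 18 rose and 2 fell, with a median of 0.32, where 32.3% of all genes were called. The 2 were NFKBIE, an inhibitor, and NFKB2, a subunit, which fell to 0.853 of its 0 h level (adjusted p = 0.0366) and in HaCaT rose 1.90-fold (adjusted p = 1.81e-09). BIRC3 rose 3.28-fold there (adjusted p = 2.78e-10) and TNFAIP3 1.36-fold (adjusted p = 0.00166). The interaction term called 9 of the 18 higher in the HaCaT response and none lower, where 13.5% of all genes were called. Of 7 mRNA decay and stability factors, 4 rose and none fell in HaCaT at 24 h, and 4 rose and 1 fell (KHSRP) in TIGK, where 31.4% of all genes were called in HaCaT and 32.3% in TIGK. ZC3H12A (regnase-1), a nuclease that degrades inflammatory mRNAs, rose 3.47-fold, and ZFP36L1, ZFP36 and ZFP36L2, which bind AU-rich elements, rose 2.07-fold, 1.95-fold and 1.55-fold. Of 8 other neutrophil-related products, 6 were tested, and LIF, a cytokine of the interleukin-6 family (4.93-fold), and the complement component C3 (1.35-fold) rose in HaCaT at 24 h, a share near the 31.4% of all genes called, while in TIGK C3 fell and LIF was not called. The alarmins S100A8 and S100A9 were higher in TIGK at both 0 h and 24 h, at 1.83 CPM in HaCaT against 5.78 CPM in TIGK for S100A8 at 24 h and 1.20 CPM against 19.5 CPM for S100A9.

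Among 11513 protein-coding genes with at least 5 CPM in a group, the ones whose level over the 6 groups was most like a chemokine gene were found by the root mean square difference of centred group means of log2(CPM + 0.5). The added 0.5 draws in levels near 0, so a small distance to CXCL2, CXCL3, CXCL6 or CCL20 does not mean equal fold changes. For CXCL8 these were FOS (0.47), IL1A (0.53) and EGR1 (0.57), for CXCL1 EGR1 (0.51), IL1A (0.59) and BIRC3 (0.65), and for CCL20 FOS (0.265), IL1A (0.281) and IL1B (0.342). CXCL3 was nearest to LIF (0.31), IL1B (0.32) and INPP5J (0.40). CXCL2 was nearest to EGLN3 (0.17), PPP1R3C (0.26) and SIK1B (0.35), although EGLN3 averaged 25.4 CPM in HaCaT at 24 h and 5.83 CPM at 0 h, a smaller fold than that of CXCL2. SIK1B is a near-identical copy of SIK1, so its count is uncertain. CXCL6 was nearest to UBAC1 (0.059), PBX3 (0.067) and CARD19 (0.076), which were expressed in TIGK, where CXCL6 had no read, so these distances rest on the added 0.5. Within the set, CCL20 and CXCL3 were the most alike (0.40), followed by CXCL1 and CXCL8 (0.47), and CXCL2 and CXCL6 were the least alike (1.60). These distances describe 6 group means each and were not tested.

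The authors' deposited tables, which list genes past a threshold, give a log2 fold change of 4.89 for CXCL8, 4.74 for CXCL1, 4.98 for CXCL2, 7.80 for CXCL3 and 6.73 for CCL20 in HaCaT at 24 h against 0 h. The authors' deposited table for TIGK at 24 h lists CXCL8 alone of these genes, at 0.78. Over all 13 entries for these genes in the authors' deposited tables, the sign was that of the edgeR fit in 13, with a median difference of 0.05 and a largest difference of 0.63 on the log2 scale. Both rest on the same counts and only genes past the authors' threshold are listed, so signs had little room to differ. Called by edgeR but not listed were CXCL6 between lines at every time, CCL20 and CXCL8 between lines at 0 h, CXCL3 between lines at 6 h, and CXCL8 in HaCaT at 6 h.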

How the data were processed

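Per the labels' protocols, total RNA was isolated with Trizol and libraries were built by a sequencing company. The submitters' processing notes name HISAT2 2.0.5, StringTie 1.3.3b, featureCounts 1.5.0-p3 and hg38; strand and the treatment of reads with several matches are not given in the sources used here. The authors deposited whole-number read counts per gene and FPKM values for 18 libraries. The authors' deposited comparison tables hold log2 fold changes and adjusted p-values.

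Counts were filtered with filterByExpr, which kept 17409 genes and 6 of the 7 chemokine genes, scaled with TMM and fitted in edgeR 4.0.16 (R 4.3.3) as 6 group means over 18 libraries, with 12 residual degrees of freedom and a prior count of 0.125. All p-values are two-sided quasi-likelihood values adjusted by Benjamini-Hochberg over all genes tested; a call means under 0.05. SE is the log2 fold change divided by the square root of F, an approximation. Against a group with no reads, folds are lower bounds from 3 counts per library, and against groups of 1 to 3 reads a count ratio is given with an exact binomial 95% interval. Both cover counting error only. Library letters A, B and C come from the column headings and are not tied to the replicate numbers of the labels. The members and lists were chosen with earlier results of these data known. From each list, up to 4 genes with the lowest adjusted p in HaCaT at 24 h against 0 h were named, and counts of 5 or fewer were named in full. S100A8, S100A9 and NFKB2 were named after their values were seen. DESeq2 1.42.0 and limma 3.58.1 on log2(FPKM + 0.1) and log2(FPKM + 1) were alternatives, besides RLE scaling, no filter, the compared groups alone, a replicate block by letter, similar genes summed and each library left out in turn. Added after the data were seen were fits without the TIGK libraries lettered C at 0 h and at 6 h, and CXCL5 without the filter. The fit was tested on simulated data. Promoter sequences are from RefSeq (GRCh38.p14, all 7 genes matched by symbol), aligned with Biopython 1.88.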

Additional observations from a re-analysis of the deposited data

Results flagged for a closer look

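A difference between the lines in the same contrast, tested by an interaction term in the edgeR fit, set 5 results apart. The 24 h response of HaCaT minus that of TIGK was 4.12 ± 0.34 on the log2 scale for CXCL8, 4.46 ± 0.47 for CXCL1, 5.43 ± 0.79 for CXCL2, 9.41 ± 1.42 for CXCL3 and 6.72 ± 0.99 for CCL20. The adjusted p was 6.75e-09, 3.39e-07, 3.09e-05, 7.03e-05 and 3.61e-05 in that order of genes. HaCaT had 0 reads of CXCL3 and 2 of CCL20 at 0 h, so those 2 sizes depend on the prior count and are no bound. All 3 libraries of HaCaT at 24 h lay above all 3 at 0 h for each of the 5 genes.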

How the results depend on the processing

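Of 31 called log2 fold changes of the chemokine genes, 27 kept direction and call under every alternative that could be fitted and without each library in turn, leaving aside the summing of similar genes, and 0 reversed. The other 4 are CXCL8 in HaCaT at 6 h, CXCL8 in TIGK at 24 h, CXCL2 in TIGK at 24 h against 6 h, and CXCL3 between lines at 6 h, with values in the report. The number of genes called in HaCaT at 6 h was 0 with limma on log2(FPKM + 0.1) and 0 with log2(FPKM + 1), against 1. Between lines at 0 h it was 3 when only the compared groups were fitted, against 5, as CXCL6 and CCL20 did not pass the filter there. In TIGK at 6 h it was 1 with DESeq2 and 1 without the filter, against 0. Without 1 library at a time, these numbers ran over 0 to 1 for HaCaT at 6 h, 0 to 1 for TIGK at 6 h, 0 to 2 for TIGK at 24 h against 0 h and 0 to 2 for TIGK at 24 h against 6 h.

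Signs that turned all belonged to values without a call. With CXCL1, CXCL2 and CXCL3 summed, the log2 value was 0.34 for HaCaT at 6 h, 0.18 for the line difference at 6 h, 0.16 for TIGK at 6 h, -0.30 for TIGK at 24 h against 0 h and -0.46 for TIGK at 24 h against 6 h (adjusted p = 0.0364), where CXCL1, and in TIGK at 6 h and at 24 h against 6 h CXCL3, had the other sign. CXCL2 had -0.16 for the line difference at 6 h with log2(FPKM + 1). For TIGK at 24 h against 6 h, CXCL3 had -0.022 with log2(FPKM + 0.1) and -0.0738 with the replicate block, and CXCL8 had -0.0757 without the TIGK libraries lettered C at 0 h and at 6 h, an alternative added after the data were seen. Leaving out 1 library at a time, the values that turned ran, for CCL20 in TIGK, from -0.60 to 0.23 at 24 h and from -0.10 to 0.73 at 6 h. For CXCL1 they ran from -0.31 to 0.055 in HaCaT at 6 h, -0.31 to 0.080 for the line difference at 6 h, -0.065 to 0.71 in TIGK at 24 h against 0 h, -0.044 to 0.73 at 24 h against 6 h and -0.18 to 0.19 at 6 h. For TIGK at 24 h against 6 h, CXCL3 ran from -0.41 to 0.39 and CXCL8 from -0.075 to 0.26, and CXCL6 in HaCaT at 6 h from -0.19 to 0.57.

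The library letters were not taken as pairs, since correlations of deviations over 0.1 were found in 0 of 9 pairs in HaCaT and 2 of 9 in TIGK, both between 0 h and 6 h (0.105 for letter A and 0.388 for letter C). In a fit with them, the replicate block by letter moved the count over all genes for HaCaT at 6 h to 70, against 35. That count was also 104 with DESeq2, 130 without the filter, 200 with the compared groups alone, 18 with log2(FPKM + 0.1) and 77 without the TIGK libraries lettered C, and 4 to 30 without 1 library at a time. The line difference at 6 h had 131 genes called, against 290 with DESeq2, 293 without the filter, 212 with the block, 86 with log2(FPKM + 0.1) and 68 to 260 without 1 library, and TIGK at 6 h had 630, against 359 with the compared groups alone and 350 to 817 without 1 library. DESeq2 gave no adjusted p for 5 values and the fit of compared groups alone left out 7, which are not counted here. Depth limits CXCL5, CXCL3 and CCL20 most, which held 1, 0 and 2 reads over the HaCaT libraries at 0 h.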

Other observations

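In HaCaT at 24 h, CXCL1 lay at 33.6 to 37.7 CPM and CXCL2 at 2.22 to 3.14 CPM over the 3 libraries. In TIGK at 24 h, CXCL1 was at 0.589 CPM in library A and at 2.87 and 3.08 CPM in libraries B and C, and CXCL2 was at 2.42 CPM in library A and at 0.588 and 1.37 CPM in B and C. CXCL3 was at 0.982, 0.653 and 0.274 CPM in the same libraries. The summed reads of the 3 genes were 61, 63 and 69. In TIGK library B at 6 h, CXCL1 had the lowest value of its group (1.19 CPM) and CXCL2 the highest (5.14 CPM). Why the genes differed in this way between libraries was not tested.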
